A study of Mus musculus with 4 samples.

Results

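Innate sensing and NF-kB control were followed through 8 genes, 8 of the 4099 complete gene rows of the deposited count table, in immune cells of mouse breast tumours by cell type. They are the receptors Tlr2 and Tlr4, the adaptors and signalling proteins Card9, Ripk2, Traf6 and Traf1, the transcription factor subunit Nfkb1 and the RNA-degrading brake Zc3h12a, and they were found by their symbols, 1 row each. Both groups of tumours grew in BALB/c mice from the 4T1 mouse mammary carcinoma line. The Mif-depleted group grew from cells depleted of the cytokine gene Mif, with samples named sgMif, and the wild-type group is named CON. Each group has 2 libraries, 4 in all, and every library pooled 3 tumours that were dissociated, cleared of red and dead cells and sorted for CD45-positive, propidium iodide-negative cells before 10x Genomics capture. The sources used here give neither age nor time of growth, and all 4 libraries carry the 4T1 line as the source of the tumour. The barcodes end in a suffix from 1 to 4, but no label or header ties a suffix to a library, so Mif-depleted against wild-type was not analysed here. What follows compares the cell types that the authors named, within the cells of suffix 1 and, apart from them, within those of suffix 2.

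Toll-like receptors are membrane sensors of microbial molecules and of material from damaged cells. Their ligand-bound complexes pass through adaptor proteins to the ubiquitin ligase Traf6, which leads to release of NF-kB dimers into the nucleus, where they switch on cytokine and survival genes. Card9 and Ripk2 feed C-type lectin receptors and NOD receptors into the same route, Traf1 works at receptors of the tumour necrosis factor family, and Zc3h12a, also called Regnase-1, cuts the messages of several cytokines and so limits the output.

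The table held 16383 cells with counts, 13162 of suffix 1 with 29567302 UMIs (unique molecular identifiers, 1 for each captured transcript) and 3221 of suffix 2 with 8578852 UMIs. Counts were present for every annotated cell of suffix 1 but for only 26.9% in suffix 2. The rows lie on chromosomes 1 to 5, so a cell's total here is not its full depth. The median cell had 1224.5 UMIs in suffix 1 and 1712 in suffix 2. The neutrophil genes S100a8 and S100a9 took 58.5% of the neutrophils' UMIs in suffix 1 and were left out of the denominator, so that a level is UMIs of a gene per 10000 other UMIs, summed over the cells of a type. Since each suffix gave 1 value per type, there was no replicate test, and all 95% intervals cover counting error only. Intervals were exact Poisson for a level, exact conditional binomial for a ratio and exact Clopper-Pearson for a share of cells. A type was called higher or lower than all other cells of its suffix when the whole interval of the ratio lay beyond 2-fold, with 50 or more UMIs over both sides.

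The names were checked against lists of defining genes. Summed over 5 macrophage genes, C1qa, C1qb and C1qc among them, the Macro names described here had 241 to 454 UMIs per 10000 of all rows. The T cell list gave 76.7 to 218 in the CD4 names, and the neutrophil list gave 5998 in neutrophils against 49.5 to 1231 in the other names described, all in suffix 1. Some names stood apart. The cells named cDC1_Clec9a carried Ctsk at 516 and Mmp9 at 296, genes known from bone-resorbing osteoclasts, while the dendritic genes Batf3 and Zbtb46 stood at 0.97 and 0.21, so the data go against that name and it is used only as the deposited label. The cells named pDC also carried Ctsk, at 125, and Mmp9, at 90.0. The cells named CD8_Tex had a macrophage sum of 215 against 9.71 to 15.0 in the other T and B cell names, with a T cell sum of 34.6, and results for them are given with and without the cells rich in C1q transcripts.

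The promoters of Tlr2, Card9 and Traf1 are shown first because Tlr2 was highest in monocytes and neutrophils, Card9 was lowest in non-myeloid types, and Traf1 was highest in the cells named cDC1_Ccl22. They are the RefSeq windows of 250 bases before to 50 after the gene start on build GRCm38.p6, all on the minus strand, read 5′ to 3′. Capitals mark matches to the NF-kB consensus.
Tlr2, chr3:83841559-83841858: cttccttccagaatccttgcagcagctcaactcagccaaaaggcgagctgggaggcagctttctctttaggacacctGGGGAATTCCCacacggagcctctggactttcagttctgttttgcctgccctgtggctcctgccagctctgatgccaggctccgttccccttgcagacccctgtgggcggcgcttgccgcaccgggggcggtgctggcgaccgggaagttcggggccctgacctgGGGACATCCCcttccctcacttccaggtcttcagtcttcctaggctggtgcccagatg
Card9, chr2:26360860-26361159: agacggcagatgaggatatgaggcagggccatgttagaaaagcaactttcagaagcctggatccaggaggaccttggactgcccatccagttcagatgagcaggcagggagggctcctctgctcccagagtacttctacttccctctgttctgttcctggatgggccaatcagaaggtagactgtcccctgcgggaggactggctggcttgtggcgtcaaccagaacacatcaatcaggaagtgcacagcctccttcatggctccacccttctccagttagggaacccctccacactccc
Traf1, chr2:34961723-34962022: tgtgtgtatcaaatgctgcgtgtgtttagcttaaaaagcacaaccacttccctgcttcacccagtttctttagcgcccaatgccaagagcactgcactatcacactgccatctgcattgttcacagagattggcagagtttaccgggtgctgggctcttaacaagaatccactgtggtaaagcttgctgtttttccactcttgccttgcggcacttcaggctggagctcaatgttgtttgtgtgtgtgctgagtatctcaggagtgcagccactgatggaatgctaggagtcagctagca
In the Tlr2 window GGGAATTCCC begins 172 bases before the start, with the overlapping match GGGGAATTCC 1 base further out, and GGGACATCCC begins 8 bases before it. The Card9 and Traf1 windows hold no match, nor do those of Traf6 and Zc3h12a, which says only that these letters are not in the windows. Of 32851 mouse promoters of this length, 8.46% hold the consensus on either strand. The AP-1 motif TGANTCA (7.81% of promoters), the PU.1 motif GAGGAAGT (3.20%) and the TATA motif TATAAA (13.6%) were found in none of the 5 windows. A match is a description of the letters and not a binding site.

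Across the 21 types with 50 or more cells in suffix 1, the 8 genes gave 168 ratios, of which 10 were called higher and 33 lower. Over all tested genes 4.89% of such ratios were higher and 10.7% lower, so the share of higher calls was near that background, and the lower calls came at 19.6% against 10.7%. The types are not independent, since every ratio of a suffix comes from the same cells. In suffix 2, over 14 types and 112 ratios, 5 were higher against a background of 3.87% and 17 were lower against a background of 10.1%. At least 1 lower member was found in 15 of the 21 types and a higher one in 6. The background differed between types, from 0.968% to 13.5% higher and from 2.25% to 46.5% lower in suffix 1. The higher calls were Tlr2 in neutrophils and Mono_Nr4a1 monocytes, Tlr4 in neutrophils, Traf1 in cDC1_Ccl22, CD4_Th, CD4_Treg and cDC2_Cd209a cells, and Nfkb1 in CD4_Th, CD4_Treg and cDC1_Ccl22 cells. Card9, Ripk2, Traf6 and Zc3h12a had no higher call.

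**Figure D1:**
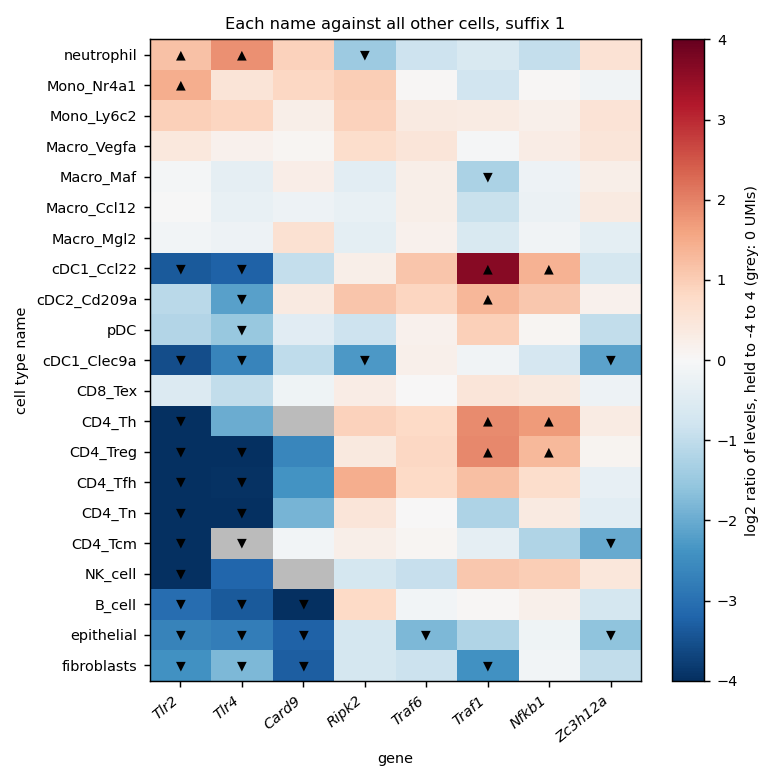
Heat map of the log2 ratio of each gene's level (UMIs per 10000 without S100a8 and S100a9) in a cell type (rows) over all other cells, for suffix 1, with colours held to ±4, triangles for calls beyond 2-fold and grey where the type had 0 UMIs. The 10 upward calls are Tlr2, Tlr4, Traf1 and Nfkb1 in myeloid, dendritic and T cell types, and the neutrophil Tlr2 ratio of 1.17 turns to -0.04 when S100a8 and S100a9 are put back in the denominator.

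Tlr2 encodes the receptor for bacterial lipoproteins, which works with a second Toll-like receptor, and lies at chr3:83836272-83841767 on the minus strand of GRCm38. In suffix 1 it was highest in Mono_Nr4a1 monocytes, at 17.0 (95% interval 15.8 to 18.1), against 6.18 in all other cells, a log2 ratio of 1.46 (1.36 to 1.55). Mono_Ly6c2 monocytes stood at 12.0 (11.2 to 12.8) and neutrophils at 11.6 (11.3 to 11.9), and these 2 did not differ beyond counting error. The neutrophil level was set against 5.14 in all other cells, with a log2 ratio of 1.17 (1.12 to 1.22). Thus both monocyte names and neutrophils led, and Mono_Nr4a1 was 1.41-fold (1.29 to 1.55) above Mono_Ly6c2. The macrophages followed, Macro_Vegfa at 8.20, Macro_Ccl12 at 6.37, Macro_Maf at 6.14 and Macro_Mgl2 at 5.94. Macro_Vegfa was apart from neutrophils above it and from Macro_Ccl12 below it. Macro_Ccl12, Macro_Maf and Macro_Mgl2 were not apart as neighbours of each other, and Macro_Mgl2 was apart from CD8_Tex below it. CD8_Tex cells had 4.50, cDC2_Cd209a cells 3.04 and pDC cells 2.91. Below them lay fibroblasts at 1.23, epithelial cells at 1.06, B cells at 0.832, cDC1_Ccl22 at 0.632, cDC1_Clec9a at 0.565 and NK cells at 0.397, with no neighbours apart. The 5 CD4 T cell names had the lowest Tlr2, 0.347 in CD4_Treg down to 0.0628 in CD4_Tcm. The range over types was 269.8-fold, but its low end rests on 1 UMI, so its size is uncertain. In suffix 2 CD4_Tcm had 0.408, from 2 UMIs. Of the 21 types, 11 were called lower than all other cells.

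In suffix 2, among types with 50 or more cells, Mono_Ly6c2 and neutrophils led Tlr2. Mono_Ly6c2 monocytes had 13.2 (11.8 to 14.6), with a log2 ratio to all other cells of 1.56, and neutrophils had 10.6 (9.80 to 11.4) against 4.20, a log2 ratio of 1.33 (1.21 to 1.45). Mono_Ly6c2 was 1.25-fold (1.09 to 1.42) above neutrophils there. Mono_Nr4a1 had 10.1 (7.80 to 12.9), from 26 cells, and did not differ from Mono_Ly6c2 there beyond counting error. Among small types Mono_Itgal had 12.4, from 5 cells, and Macro_Ccl12 had 11.4, from 26. Genes of the neutrophil list were found in the monocytes too, with a summed level of 446 in Mono_Nr4a1 and 477 in Mono_Ly6c2 against 5998 in neutrophils of suffix 1. Most of these sums was S100a8 and S100a9, which took 4.36% of UMIs in Mono_Nr4a1 and 4.52% in Mono_Ly6c2. The part of neutrophil RNA in the monocyte and macrophage Tlr2 levels was not tested.

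Counted per cell, Tlr2 was detected in 83.1% of Mono_Nr4a1 cells and 46.6% of neutrophils of suffix 1, against 1.95% of CD4_Tn cells, a type with little use of the receptor. These types differ in depth, with medians, outside S100a8 and S100a9, of 2070 UMIs per Mono_Nr4a1 cell, 595 per neutrophil and 618.5 per CD4_Tn cell. After each cell was thinned to 500 UMIs, the shares were 52.2% (45.5 to 58.8) of 230 Mono_Nr4a1 cells, 40.8% (39.2 to 42.4) of 3774 neutrophils and 0.813% (0.168 to 2.36) of 369 CD4_Tn cells. Shallower cells were left out, 1 in Mono_Nr4a1, 1938 in neutrophils and 93 in CD4_Tn. At equal depth the myeloid shares thus stayed far above the CD4_Tn share.

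Tlr4, the receptor for lipopolysaccharide together with Ly96, lies at chr4:66827584-66930284 on the plus strand. Neutrophils of suffix 1 were highest, at 4.20 (4.01 to 4.39) against 1.18 in all other cells, a log2 ratio of 1.83 (1.74 to 1.92). In suffix 2 neutrophils were at 5.91 (5.35 to 6.51) against 0.872, a log2 ratio of 2.76 (2.57 to 2.94). Unlike Tlr2, Tlr4 as scaled here was therefore led by neutrophils in both suffixes. Neutrophils were 1.33-fold (1.16 to 1.53) above Mono_Ly6c2 in suffix 1 and 2.20-fold (1.71 to 2.87) in suffix 2. Their lead in suffix 1 was lost under the other scalings given below. In suffix 1 Mono_Ly6c2 followed at 3.17, Mono_Nr4a1 at 2.53 and Macro_Vegfa at 1.96, each apart from the next. Macro_Mgl2 at 1.56, Macro_Ccl12 at 1.45 and Macro_Maf at 1.43 did not differ from one another as neighbours. CD8_Tex cells had 0.940, and from pDC cells at 0.641 downwards no neighbours were apart. The lowest levels were 0.0496 in CD4_Treg and 0 UMIs in 258 CD4_Tcm cells, which allows a level of up to 0.189. Tlr4 was called higher in 1 type and lower in 11. A Tlr4 UMI was found in 25.5% of neutrophils and 0.649% of CD4_Tn cells of suffix 1, and after thinning to 500 UMIs in 18.6% of neutrophils and 0% of CD4_Tn cells.

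The neutrophil ratios depend on how a level is scaled. With both S100 genes put back into the denominator, Tlr2 in neutrophils of suffix 1 was 4.81 and its log2 ratio -0.04, and Tlr4 had a log2 ratio of 0.62. Counted as UMIs per cell, the log2 ratios were -0.45 for Tlr2 and 0.20 for Tlr4. None of these 4 values was a call. The order of types changed too. With the S100 genes in the denominator, Tlr4 in neutrophils of suffix 1 was 1.74. Mono_Ly6c2 at 3.02, Mono_Nr4a1 at 2.42 and Macro_Vegfa at 1.83 were above it. Per cell, these 3 types had Tlr4 log2 ratios of 1.09, 0.91 and 1.31, also above neutrophils. Tlr2 in neutrophils, at 4.81, was then below both monocyte names and the Macro names listed above. The median of all tested genes also moved, with a neutrophil log2 ratio of -1.18 as scaled in the text, -2.39 with the 2 genes in the denominator and -2.80 per cell, so both receptors lay above the median gene under each scaling. In every type, either change of scale moves the log2 ratios of all genes by the same amount. It can alter a sign, a call or the order of types, but not the distance of a gene from the median gene of that type. In neutrophils of suffix 1, 2 members were called higher against 9.14% of all tested genes, and 1 was lower against 46.5%.

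**Figure D2:**
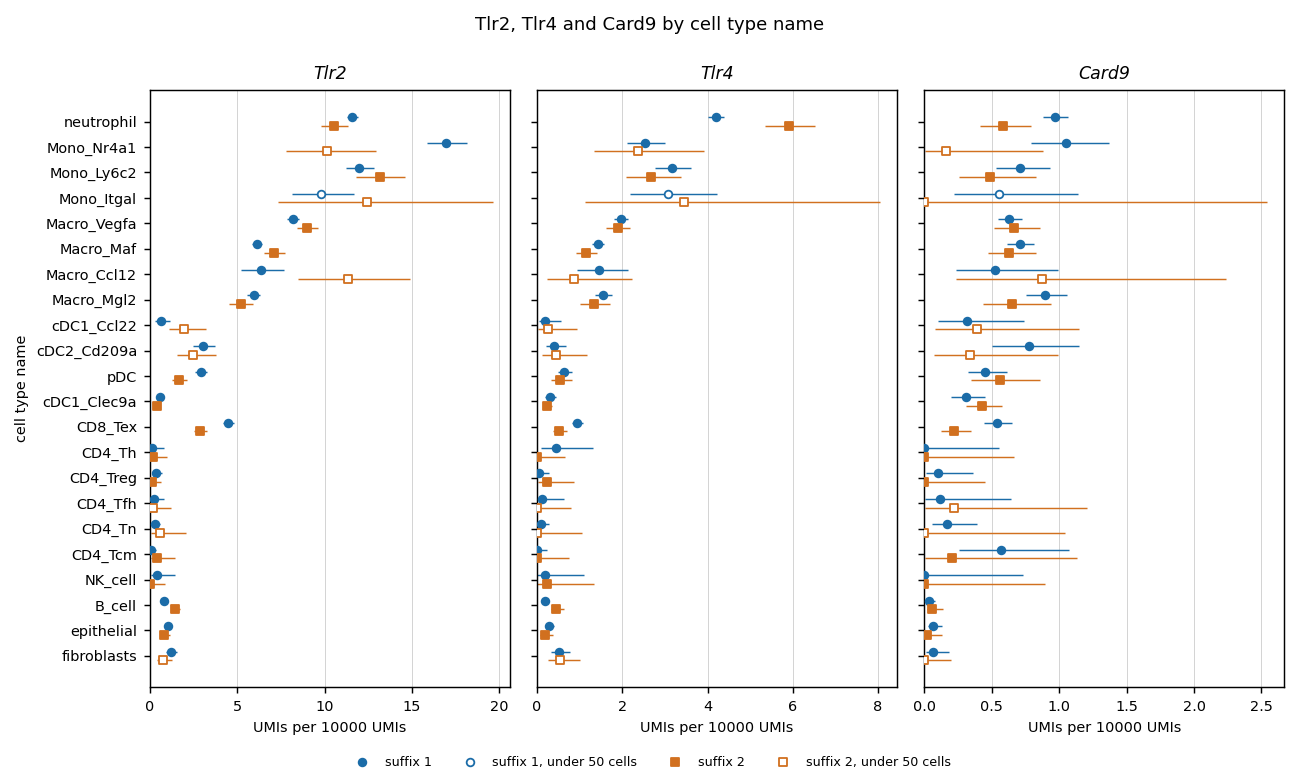
Levels of Tlr2, Tlr4 and Card9 (UMIs per 10000 without S100a8 and S100a9) by cell type for suffix 1 and suffix 2, with exact Poisson 95% intervals and open markers where a type had fewer than 50 cells. Monocytes and neutrophils stand at the top for Tlr2, and neutrophils lead Tlr4 at 4.20 in suffix 1 and 5.91 in suffix 2. CD4_Tcm has the lowest level of both receptors in suffix 1 (0.0628, from 1 UMI, for Tlr2 and 0 for Tlr4). Card9 is at 0 in CD4_Th and NK cells of suffix 1.

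Card9 carries signals of the C-type lectin receptors to Bcl10 and Malt1, and lies at chr2:26352176-26360918 on the minus strand. It overlaps Gm13562 on the opposite strand by 8274 bases, and the sources used here do not say whether the counting used strand, so its reads are uncertain. Its level in suffix 1 was 1.05 (0.791 to 1.37) in Mono_Nr4a1, 0.971 (0.882 to 1.07) in neutrophils and 0.895 in Macro_Mgl2. No 2 neighbours in its order were apart. The contrast was at the low end, where B cells had 0.0370, fibroblasts 0.0624 and epithelial cells 0.0672, log2 ratios of -4.13, -3.30 and -3.24 and the gene's 3 lower calls, of which fibroblasts, at -2.28, were not called as UMIs per cell. CD4_Th and NK cells had 0 UMIs in 56 and 58 cells, which allows up to 0.452 and 0.595. Card9 in neutrophils was above all other cells by a log2 ratio of 0.92 as scaled here and below them, at -0.29, with the S100 genes in the denominator. In suffix 2, neutrophils had 0.583, Macro_Vegfa 0.668, Macro_Mgl2 0.653 and Macro_Maf 0.631, and Mono_Nr4a1 had 0.158, from 1 UMI.

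Ripk2, the kinase that transmits NOD receptor signals, lies at chr4:16122733-16163647 on the minus strand. Its range over the 21 types of suffix 1 was 12.8-fold. It was lowest in cDC1_Clec9a cells, with 0.135 (0.0674 to 0.242) against 0.661 in all other cells of suffix 1, a log2 ratio of -2.29. In suffix 2 these cells had 0.146, a log2 ratio of -2.15 and again a lower call, though as UMIs per cell it was -0.72 in suffix 1 and no call. The median of all tested genes in these cells moved from -0.28 to 1.28 under that scaling. Neutrophils were also low, at 0.268 (0.222 to 0.320) against 0.735, a log2 ratio of -1.46 in suffix 1, whereas the value of -1.32 in suffix 2 was not a call. The neutrophil median of all tested genes was -1.18 in suffix 1 and -1.03 in suffix 2, not far above these Ripk2 values. So the receptor-rich neutrophils were not rich in Ripk2. The highest level, 1.74 in CD4_Tfh, rests on 15 UMIs and has an interval of 0.971 to 2.86. Mono_Nr4a1 at 1.25, Mono_Ly6c2 at 1.19 and Macro_Vegfa at 0.954 lay in the upper part of the order. The step between neutrophils and cDC1_Clec9a, 1.98-fold, was the only one between neighbours that exceeded counting error in suffix 1.

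Traf6, the ubiquitin ligase shared by Toll-like and interleukin receptors, lies at chr2:101678429-101701669 on the plus strand. The highest levels of suffix 1 were 2.40 (1.70 to 3.30) in cDC1_Ccl22, 2.02 in cDC2_Cd209a, 1.99 in CD4_Treg, 1.97 in CD4_Tfh and 1.96 in CD4_Th cells, none of them apart. Macro_Vegfa at 1.49 and Mono_Ly6c2 at 1.43 came next in the order. Its lowest level was 0.336 (0.240 to 0.457) in epithelial cells against 1.18 in all other cells, a log2 ratio of -1.81 and the only Traf6 call. B cells at 1.06 were 1.52-fold above neutrophils at 0.699, the single step between neighbours beyond counting error. In suffix 2 the epithelial log2 ratio was -1.50 and no call, so Traf6 had no call there. Counted with both S100 genes in the denominator, or as UMIs per cell, the epithelial log2 ratio was -1.43 or -1.30 and no call. The epithelial median of all tested genes was 0.29 and 0.42 under these scalings.

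Zc3h12a, the endonuclease that degrades cytokine messages, lies at chr4:125118423-125127840 on the minus strand. It was spread across myeloid and lymphoid types of suffix 1, with 5.00 (4.50 to 5.54) in Mono_Ly6c2, 4.76 in NK cells, 4.75 (4.55 to 4.95) in neutrophils, 4.64 in Macro_Vegfa and 4.37 in CD4_Th. Its 3 lower calls were cDC1_Clec9a at 0.823, CD4_Tcm at 0.880 and epithelial cells at 1.19, with log2 ratios of -2.13, -2.00 and -1.61. In suffix 2 cDC1_Clec9a was at 0.782, a log2 ratio of -2.02 and a call, while epithelial cells (-1.09) and CD4_Tcm (-2.82) were not calls there. As UMIs per cell the cDC1_Clec9a value of suffix 1 was -0.57 and the epithelial one -1.10, neither a call, and with the S100 genes in the denominator CD4_Tcm had -1.62 and epithelial cells -1.23, neither a call. The median of all tested genes per cell was 1.28 in cDC1_Clec9a and 0.42 in epithelial cells. The neutrophil ratio had a log2 value of 0.57 as scaled here, -0.64 with S100a8 and S100a9 in the denominator and -1.05 per cell, none a call. Fibroblasts at 1.79 were above epithelial cells, with an interval of the ratio of 1.13 to 1.98, and no other neighbours of suffix 1 were apart.

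**Figure D3:**
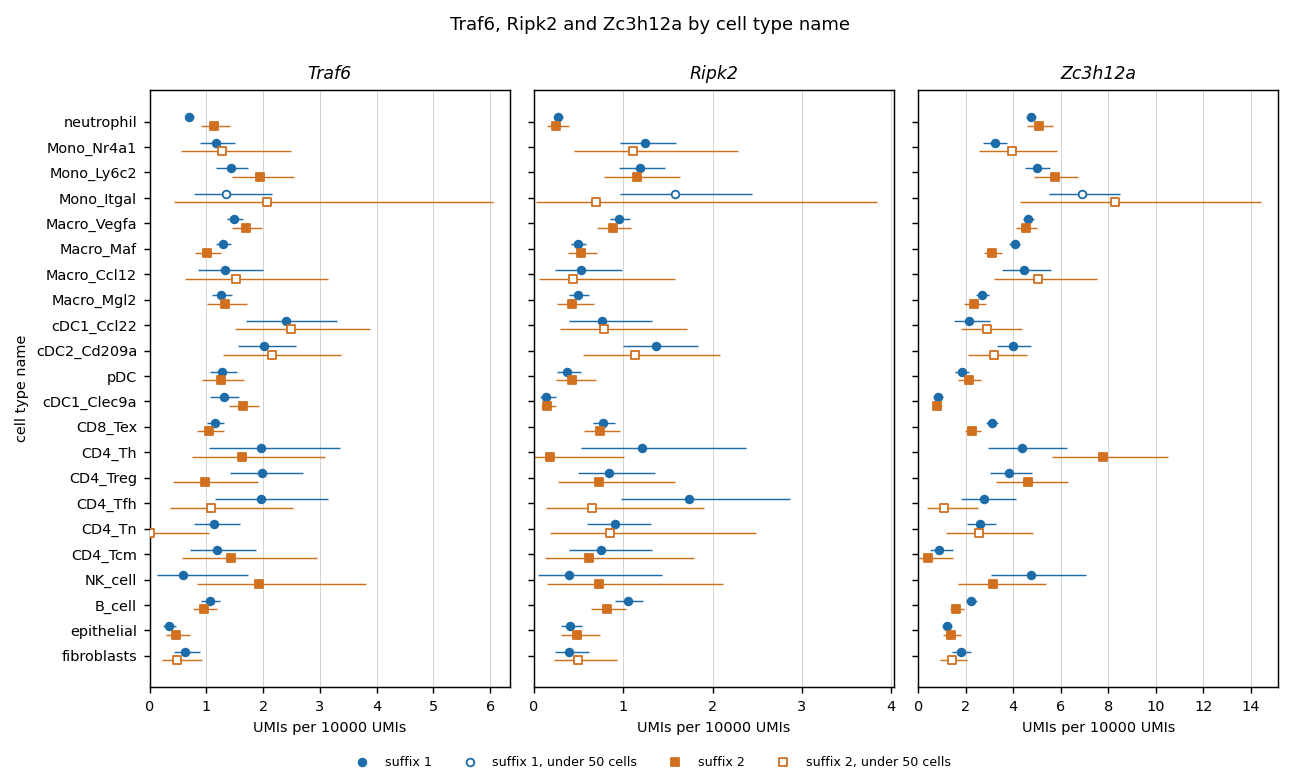
Levels of Traf6, Ripk2 and Zc3h12a (UMIs per 10000 without S100a8 and S100a9) by cell type for suffix 1 and suffix 2, with exact Poisson 95% intervals and open markers for types under 50 cells. Most intervals overlap, and the low values are Ripk2 and Zc3h12a in cDC1_Clec9a cells (0.135 and 0.823 in suffix 1) and Traf6 in epithelial cells (0.336).

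Traf1, which binds Traf2 at receptors of the tumour necrosis factor family and is itself an NF-kB target, lies at chr2:34941750-34961772 on the minus strand. The cells named cDC1_Ccl22 stood far above the rest in suffix 1, at 46.2 (42.9 to 49.7) against 3.73 in all other cells, a log2 ratio of 3.63 (3.52 to 3.74). In suffix 2 their level was 33.1 (29.2 to 37.5) in 39 cells. These cells also carried the dendritic genes Cd40, at 11.1, and Batf3, at 9.36. CD4_Th cells had 14.9 (12.1 to 18.2), CD4_Treg cells 14.7 (13.1 to 16.5) and cDC2_Cd209a cells 9.97 (8.91 to 11.1), with log2 ratios of 1.90, 1.91 and 1.34. Each of these 4 was a call. cDC1_Ccl22 was 3.10-fold (2.51 to 3.86) above CD4_Th, CD4_Th and CD4_Treg did not differ, and CD4_Treg was 1.48-fold above cDC2_Cd209a. Further down lay CD4_Tfh at 9.26, NK cells at 8.53, pDC at 7.52, CD8_Tex at 5.47 and Mono_Ly6c2 at 5.04. The 2 lower calls were Macro_Maf at 1.80 and fibroblasts at 0.770, with log2 ratios of -1.28 and -2.41. Counted as UMIs per cell, the Macro_Maf ratio was 0.04 and those of fibroblasts (-1.39) and CD4_Treg (1.00) were no calls. The median of all tested genes moved too, from -0.08 to 1.24 in Macro_Maf and from -0.07 to 0.96 in fibroblasts. In CD4_Treg it moved from 0.14 to -0.77. A change of scale cannot alter the distance of Traf1 from the median gene, so that distance does not bear on the lost calls.

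CD4_Treg cells gave 15.6 in suffix 2, a log2 ratio of 1.88 and again a call, while CD4_Th cells gave 5.44 (3.67 to 7.76), a log2 ratio of 0.32 and no call. Between suffixes the CD4_Th level differed by a log2 ratio of 1.46 (0.85 to 2.10), from 56 cells in each. A Traf1 UMI was found in 92.0% (84.3 to 96.7) of cDC1_Ccl22 cells and 60.5% of CD4_Treg cells of suffix 1, against 11.4% of fibroblasts, a type with the lowest level. Median depths were 1663, 806 and 2288 UMIs. At 500 UMIs per cell the shares were 81.2% (71.0 to 89.1) of 80 cDC1_Ccl22 cells, 48.1% of 185 CD4_Treg cells and 3.88% of 103 fibroblasts, with 8, 35 and 37 cells left out. The order of the 3 types was the same with and without thinning.

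Nfkb1 encodes the precursor of a DNA-binding subunit of NF-kB and lies at chr3:135584655-135691547 on the minus strand. It overlaps Gm43430 on the same strand by 3897 bases. It was measured in every type, with a highest level 7.45-fold above its lowest among the 21 types of suffix 1. CD4_Th cells led, at 26.7 (22.9 to 30.9) against 8.11 in all other cells, a log2 ratio of 1.72 and in suffix 2 they had 29.7 (25.4 to 34.6), a log2 ratio of 1.86. cDC1_Ccl22 cells had 21.2 (19.0 to 23.6) and CD4_Treg cells 19.8 (17.9 to 21.8), with log2 ratios of 1.39 and 1.30, all 3 being calls in suffix 1. CD4_Th was 1.26-fold (1.04 to 1.52) above cDC1_Ccl22, which did not differ from CD4_Treg. In suffix 2 the 39 cDC1_Ccl22 cells had 31.4, above the CD4_Th value there, and the CD4_Treg level was 17.0, a log2 ratio of 1.04 and no call. As UMIs per cell the log2 ratios of suffix 1 were 1.19 in CD4_Th and 0.39 in CD4_Treg, neither a call. The median of all tested genes per cell was -0.10 in CD4_Th and -0.77 in CD4_Treg. cDC2_Cd209a at 16.8, NK cells at 16.1 and CD4_Tfh at 13.3 came next and were not apart as neighbours. The lowest levels of suffix 1 were 5.19 in cDC1_Clec9a, 4.64 in neutrophils and 3.58 in CD4_Tcm. The log2 ratios were -0.96 in neutrophils and -1.19 in CD4_Tcm, neither a call. In suffix 2 CD4_Tcm had 6.73, and cDC1_Clec9a was lowest, at 4.24. The neutrophil value of suffix 1 was -2.17, a lower call, with S100a8 and S100a9 in the denominator. The median of all tested genes in neutrophils was -1.18 as scaled here and -2.39 with both S100 genes in. Nfkb1 in neutrophils thus lay above the median gene, by a distance that the scaling cannot change.

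**Figure D4:**
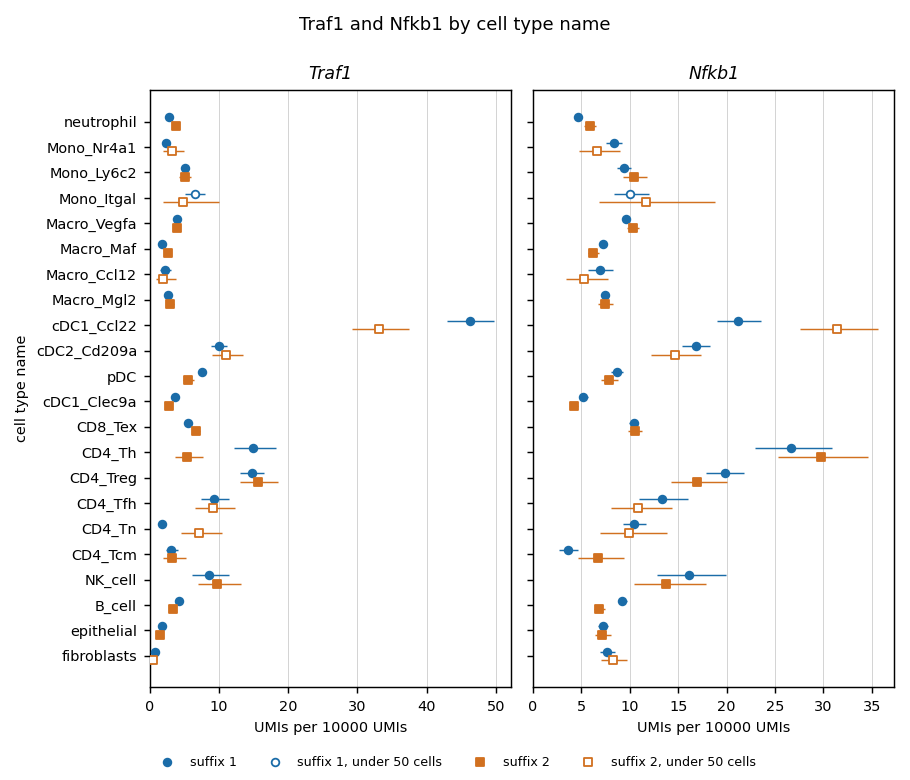
Levels of Traf1 and Nfkb1 (UMIs per 10000 without S100a8 and S100a9) by cell type for suffix 1 and suffix 2, with exact Poisson 95% intervals and open markers for types under 50 cells. cDC1_Ccl22 cells stand at 46.2 for Traf1 and 21.2 for Nfkb1 in suffix 1, and CD4_Th cells stand at 26.7 for Nfkb1 in suffix 1 and 29.7 in suffix 2, where 39 cDC1_Ccl22 cells have 31.4.

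By type, the member calls came in small numbers beside the background. In cDC1_Ccl22 cells of suffix 1, 2 members were higher against 5.72% of tested genes and 2 lower against 4.38%. In CD4_Treg cells 2 were higher against 5.92% and 2 lower against 7.66%, and in CD4_Th cells 2 were higher against 3.79% and 1 lower against 3.96%. Epithelial cells had 0 higher members against 11.2% and 5 lower against 16.6%, and fibroblasts had 0 higher against 13.5% and 4 lower against 9.34%. In cDC1_Clec9a cells 0 were higher against 5.98% and 4 lower against 15.7% in suffix 1, and 0 were higher against 6.48% and 4 lower against 22.4% in suffix 2. Macro_Vegfa, Mono_Ly6c2 and CD8_Tex had no call in either direction in suffix 1, against 0.968%, 1.59% and 3.7% higher and 12.1%, 8.6% and 6.55% lower. Without lymphocytes of 5 or more C1q UMIs, CD8_Tex had 3 calls, with Tlr2 lower at a log2 ratio of -2.59, Tlr4 lower at -2.49 and Traf1 higher at 1.34. The share called over all genes was not computed without those cells, so this count has no background beside it.

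Pairs of related types were set against each other. Between Macro_Vegfa and Macro_Maf no member was called in suffix 1, against a background of 1.18% higher and 0.699% lower. Traf1 had the highest ratio of suffix 1 but not of suffix 2, with 3.93 in Macro_Vegfa against 1.80 in Macro_Maf, a log2 ratio of 1.13 (0.98 to 1.28) in suffix 1 and 0.55 in suffix 2. Ripk2 was 0.954 in Macro_Vegfa against 0.493 in Macro_Maf, a log2 ratio of 0.95 (0.66 to 1.25) in suffix 1 and 0.75 in suffix 2. Tlr2, Tlr4 and Nfkb1 had log2 ratios of 0.42, 0.46 and 0.42 with intervals above 0, and Card9 had -0.17 with an interval of -0.47 to 0.12. In suffix 2 Card9 had 0.08, and both Card9 values were within counting error.

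CD4_Treg cells, which restrain other T cells, had Traf1 at 14.7 against 1.74 in naive-named CD4_Tn cells, a log2 ratio of 3.08 (2.66 to 3.54), the only member called of 4 tested against a background of 8.74% higher and 2.61% lower. In suffix 2 that ratio was 1.14 (0.51 to 1.82), no longer a call, with 37 CD4_Tn cells and backgrounds of 10.9% higher and 3.21% lower. Nfkb1 had a log2 ratio of 0.92 (0.70 to 1.14), Traf6 0.81 (0.11 to 1.51) and Zc3h12a 0.55 (0.08 to 1.03) in suffix 1. None of these 3 was a call.

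cDC1_Ccl22 cells had Traf1 above cDC2_Cd209a cells by a log2 ratio of 2.21 (2.02 to 2.41) in suffix 1 and 1.59 (1.25 to 1.94) in suffix 2, both calls, against backgrounds of 8.04% and 6.55% higher. Tlr2 was lower in cDC1_Ccl22, at 0.632 against 3.04 in cDC2_Cd209a, a log2 ratio of -2.27 (-3.37 to -1.33) and a call against a background of 4.73%. In suffix 2 the Tlr2 ratio was -0.35 (-1.40 to 0.67), within counting error, against a background of 3.72% lower. Mono_Ly6c2 had more Traf1 and Zc3h12a than Mono_Nr4a1, with log2 ratios of 1.08 (0.79 to 1.39) and 0.64 (0.37 to 0.91), and less Tlr2, at -0.50 (-0.64 to -0.36). None was a call against backgrounds of 3.97% higher and 0.851% lower. The Tlr2 ratio of these monocytes was 0.38 (-0.01 to 0.78) in suffix 2, within counting error.

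The cells named CD8_Tex held both receptors at levels above the other lymphocytes. Split by C1q transcripts, the 253 cells of suffix 1 with 5 or more C1qa, C1qb and C1qc UMIs had Tlr2 at 5.77, against 1.11 in the other 274 cells. Tlr4 was 1.17 in the C1q-rich cells and 0.333 in the others, and Card9 was 0.668 and 0.193. Traf1 ran the other way, with 3.85 in the C1q-rich cells and 9.79 in the others, while Nfkb1 had 9.83 and 11.9. In suffix 2, 52 C1q-rich cells had Tlr2 at 5.60 and Traf1 at 4.75, against 0.733 and 8.20 in 215 others. B cells showed the same split for Tlr2, with 5.68 in 40 C1q-rich cells and 0.600 in 1745 others of suffix 1, and 5.23 in 59 and 0.578 in 361 of suffix 2. Tlr2 in the C1q-rich cells of both names thus lay between 5.23 and 5.77, beside 5.94 to 8.20 in the Macro names of suffix 1. A doublet caller was not run, and whether these barcodes hold 2 cells was not tested.

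**Figure D5:**
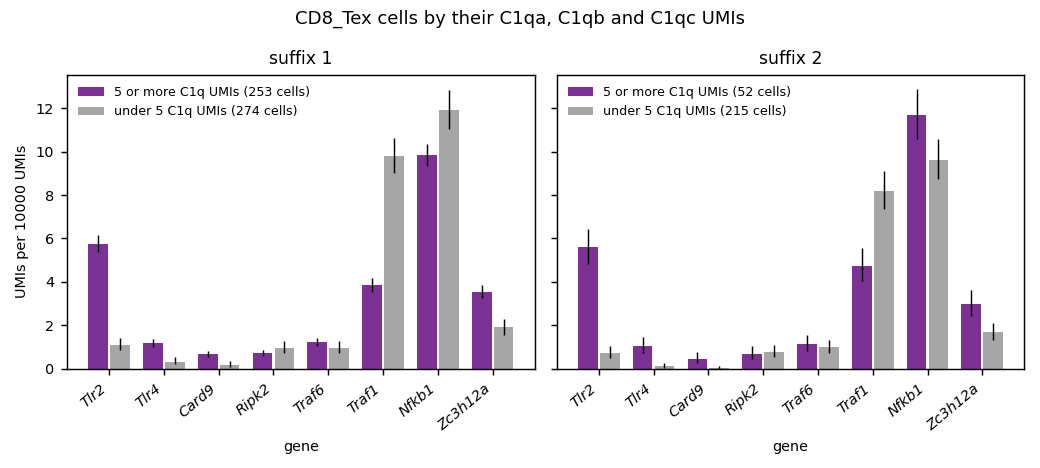
Levels of the 8 genes (UMIs per 10000 without S100a8 and S100a9) in CD8_Tex cells with 5 or more C1q UMIs and with fewer, for suffix 1 and suffix 2, with exact Poisson 95% intervals. Tlr2 is 5.77 in C1q-rich cells and 1.11 in the others in suffix 1, whereas Traf1 is 3.85 and 9.79.

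Between suffixes, levels of 1 type could be compared for 14 types. Of 84 ratios of suffix 1 over suffix 2 with 50 or more UMIs, 29 had an interval excluding 1, against 28.7% over all genes. An interval wholly beyond 2-fold was found for 0, against 0.538% higher and 0.369% lower over all genes. Some ratios themselves were beyond 2-fold, such as Traf1 in CD4_Th at a log2 ratio of 1.46 (0.85 to 2.10). Traf1 differed beyond counting error in 7 of 14 types, Tlr2 in 6, Nfkb1 in 5, Zc3h12a in 4 and Ripk2 in 0. In neutrophils the log2 ratio was -0.49 for Tlr4, -0.70 for Traf6 and 0.73 for Card9, and in B cells it was -0.82 for Tlr2 and -1.30 for Tlr4. The B cells with 5 or more C1q UMIs number 40 of 1785 in suffix 1 and 59 of 420 in suffix 2. Among the other B cells Tlr2 was 0.600 in suffix 1 and 0.578 in suffix 2, and Tlr4 was 0.155 and 0.267. In CD8_Tex cells the log2 ratio was 0.65 for Tlr2 and 0.84 for Tlr4. There the C1q-rich cells number 253 of 527 in suffix 1 and 52 of 267 in suffix 2. These differences are not a group comparison, since the suffixes are not tied to libraries.

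Seen across types, the log2 levels of the genes fell into patterns, given as descriptions over 21 types of 1 suffix that share depth and capture. Tlr2 and Tlr4 had a Pearson correlation of 0.93 in suffix 1 and 0.85 over 14 types of suffix 2. Card9 followed Tlr2 with 0.74 and 0.81, and Tlr4 with 0.63 and 0.69. Traf1 and Nfkb1 had 0.74 and 0.66, and Card9 and Nfkb1 had -0.47 and -0.59. As scaled here, both receptors were highest in Mono_Nr4a1, Mono_Ly6c2 and neutrophils among the 21 types of suffix 1. Card9 had no higher call, and its levels of 0.566 in CD4_Tcm and 0.522 in Macro_Ccl12 were side by side. In suffix 1, Traf1 and Nfkb1 were both called higher in cDC1_Ccl22, CD4_Th and CD4_Treg. The T cell name CD4_Tcm had the lowest Nfkb1 there, 3.58, and CD4_Tn had Traf1 at 1.74. These 2 low values were not seen in suffix 2, where CD4_Tcm had Nfkb1 at 6.73 and 37 CD4_Tn cells had Traf1 at 7.09. The same gene in both suffixes correlated at 0.92 for Tlr2, Card9 and Zc3h12a, at 0.91 for Nfkb1, 0.87 for Tlr4 and 0.86 for Traf1, but at only 0.59 for Ripk2 and 0.49 for Traf6.

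Among 2459 genes with 500 or more UMIs, those most like each member over 21 types of suffix 1 were named by their correlation. For Tlr2 they were Gm5150 and Tpd52 at 0.958 and the Fc receptor Fcgr3 at 0.952, with 0.925, 0.914 and 0.858 in suffix 2. For Tlr4 they were the lipid droplet gene Plin2 at 0.950, the cholesterol esterifying Soat1 at 0.947 and the transcription factor Cebpb at 0.941, with 0.811, 0.950 and 0.900 in suffix 2. For Card9 they were Fam217b at 0.881, I830077J02Rik at 0.878 and Sirpb1c at 0.862, with 0.848, 0.892 and 0.733 in suffix 2. Traf1 was most like Tank, a binding partner of TRAF proteins, at 0.823, the interleukin receptor chain Il2ra at 0.813 and Pex16 at 0.795. In suffix 2 Tank had only 0.566, Il2ra 0.753 and Pex16 0.601. Nfkb1 was most like Cyp51, Nr4a3 and Siah2, at 0.842, 0.786 and 0.758. In suffix 2 Cyp51 had only 0.149, Nr4a3 0.741 and Siah2 0.421. Zc3h12a was most like Neurl3, Tnfrsf1b and Vamp3, at 0.810, 0.809 and 0.799, with 0.679, 0.913 and 0.734 in suffix 2. The nearest genes to Ripk2, Slc23a2 at 0.808, and to Traf6, Dapp1 at 0.751, had 0.566 and 0.564 in suffix 2.

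Other genes of the pathway were taken from lists of receptors, adaptors, brakes and targets, without the 8 members. In neutrophils of suffix 1, 4 of 10 further receptor genes were higher (Ly96, Lbp, Il18rap and Tnfrsf1b) and 4 were lower (Tlr12, Cd36, Il1r1 and Il1rl1), beside 9.14% of all tested genes higher and 46.5% lower, with a list median log2 ratio of -0.03 against -1.18 over all genes. Il18rap, a chain of the interleukin-18 receptor, was 4.89 in neutrophils against 0.734 in all other cells, and Il1r1 was 0.0134 against 0.293. Of 7 adaptors, Bcl10 was higher, at 15.0 against 6.47, and Traf5 was lower, at 0.0848 against 0.557, with a median of -0.50. Among 4 further brakes, Otud7b was higher, at 1.07 against 0.380, and Rbck1 was lower, at 1.00 against 2.22, with a median of 0.13. Of 14 NF-kB target genes 6 were higher and 5 were lower, with a median of 0.23. The iron-binding Lcn2 was 364 in neutrophils against 16.1 in all other cells, and the cytokine Il6 was 0.0335 against 0.998. These neutrophil counts share the scaling limit given above for the receptors.

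In Macro_Vegfa cells 5 of 14 target genes were higher (Il1a, Il1b, Il6, Ptgs2 and Tnfrsf9) and 1, Lcn2, was lower, beside 0.968% of all tested genes higher and 12.1% lower, with a median of 0.67 against -0.15 over all genes. Il6 was 2.04 in Macro_Vegfa against 0.611 in all other cells, and Lcn2 was 17.4 against 96.1. None of the 10 receptors and none of the 7 adaptors was higher there, and 4 receptors were lower. Of 7 messages that Zc3h12a is known to cut, 3 were higher in Macro_Vegfa (Il6, Il1b and Ptgs2) and 3 lower (Icos, Tnfrsf4 and Lcn2), with a median of -0.30. Zc3h12a itself was 4.64 in these cells, not a call.

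In CD4_Treg cells, beside Traf1 and Nfkb1, 2 of 7 further adaptors were higher, Tank and Traf2, the second at 1.59 against 0.527, and none was lower, with a median of 0.88 against 0.14 over all genes. Of 10 receptors 2 were higher, Il18r1 and the interleukin-33 receptor Il1rl1, which was 15.2 in CD4_Treg against 0.216 in all other cells. The receptor-side gene Lbp was lower and 5 receptors had 0 UMIs. Of 14 target genes 11 were lower and 1, Tnfrsf9, was higher, at 35.5 against 2.89, beside 7.66% of all tested genes lower and 5.92% higher, with a median of -3.01. Tnfrsf4, like Tnfrsf9 a receptor of the tumour necrosis factor family, was 38.6 in CD4_Treg against 0.845 and also a call.

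In cDC1_Ccl22 cells the single adaptor called was Tank, at 9.04 against 3.18 in all other cells, with a median of 0.59 over 7 adaptors against 0.11 over all genes. Of 14 targets 4 were higher (Il6, Cd40, Tnfrsf9 and Marcksl1) and 4 lower (Il1a, Il1b, F3 and Lcn2), beside 5.72% of all tested genes higher and 4.38% lower, with a median of -0.26. Cd40, a receptor by which T cells activate dendritic cells, was 11.1 in cDC1_Ccl22 against 0.673. Among the receptors, Il1r1 was 1.20 against 0.230 and Il18r1 was also higher, while Lbp was lower. No brake was called in cDC1_Ccl22 or CD4_Treg cells.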

How the data were processed

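CD45-positive cells of Mif-depleted and wild-type 4T1 tumours were profiled with 10x Genomics, 2 libraries per group. The values are UMI counts per gene and cell deposited by the authors, with cell type names deposited for 45781 barcodes. Cell Ranger, Seurat and the builds GRCm38 and mm10 are named, without roles or versions, per the submitters' processing notes. The sources used here give no filters, doublet removal or naming method. The table used held 4099 complete rows and 1 incomplete row that was left out. No label or header ties a barcode suffix to a library, so the planned edgeR test between groups was not run. Results for 1 cell type name are not reported here, but its cells stay in the sum of all other cells.

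From these counts, UMIs were summed per type and suffix and scaled to 10000 UMIs without S100a8 and S100a9. Intervals, at 95%, are exact Poisson, conditional binomial and Clopper-Pearson. A count of 0 allows up to 3 UMIs, and in lists such genes were set to that floor for the median. Genes most like a member were the 3 with the highest Pearson correlation of log2 levels plus 0.1 over types of 50 or more cells. Shares of cells were also taken after drawing 500 UMIs per cell outside S100a8 and S100a9. RefSeq promoters (GRCm38.p6) were matched by symbol for 5 of 8 members. Gene positions come from GENCODE M21. The members and lists were chosen with earlier results of these data known. The code was tested on simulated data. Tables were handled with pandas 2.3.3 and numpy 2.4.6, intervals came from scipy 1.17.1, and plots from matplotlib 3.10.9, under Python 3.11.15.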

Additional observations from a re-analysis of the deposited data

How the results depend on the processing

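Of 168 ratios to all other cells in suffix 1, 10 were called higher and 33 lower. Higher calls numbered 16 with S100a8 and S100a9 in the denominator (8 of the 10 shared), 38 as UMIs per cell (5 shared), 22 with the mean of cell levels (10 shared), 23 with a 1.5-fold threshold and 5 of 112 in suffix 2. Lower calls numbered 59 with the mean of cell levels (32 of the 33 shared) and 17 in suffix 2. The looser threshold by construction calls more, and suffix 2 holds fewer cells and types. Calls with the mean of cell levels rested on the ratio alone, without an interval or a minimum of UMIs, which is also a looser rule. Per cell, the median log2 ratio of all tested genes went from -0.08 to 1.24 in Macro_Maf and from -0.04 to 1.91 in Macro_Mgl2. In neutrophils it went from -1.18 to -2.80. How far such shifts account for the counts under the 2 other scalings was not tested. Without the 5% of cells with most UMIs in each type there were 11 higher and 35 lower calls, and without lymphocytes of 5 or more C1q UMIs 11 and 38. Except for suffix 2, the share called over all genes was not computed under these alternatives, so the counts have no background beside them. Among the called ratios, those that changed sign were Tlr2 in neutrophils, at -0.0357 with S100a8 and S100a9 in the denominator and -0.45 per cell, Traf1 in Macro_Maf at 0.0424 per cell and Tlr4 in pDC at 0.15 per cell. The median gene per cell stood at 1.24 in Macro_Maf and 1.66 in pDC, above Traf1 and Tlr4 there. Per cell, Nfkb1 in CD4_Th (1.19), Nfkb1 in CD4_Treg (0.39) and Traf1 in CD4_Treg (1.00) were no longer called. No paired analysis was possible because no suffix can be tied to a sample. The tests between groups, with their replicate block, DESeq2 and left-out replicates, were not run for the same reason. Levels below about 1 rest on few UMIs in small types.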
